A study of Homo sapiens with 4 samples.

Results

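The genes of the mitochondrial protein import machinery were followed in A2780 cells, an established line from a human ovarian cancer, given wogonin, a flavone found in plants. The members were the protein-coding genes named TIMM or TOMM with a number, and PMPCA, PMPCB, PAM16, DNAJC19, SAMM50, MTX1, MTX2, OXA1L, CHCHD4, GFER and GRPEL1. This rule uses names only and gave 36 of the 57773 genes in the deposited tables. RNA sequencing was done on 4 libraries of cells labelled WT. Libraries 1 and 2 came from cells given the vehicle DMSO, for which the labels state no time, and libraries 3 and 4 from cells given 10 ug/mL wogonin for 48 h. The submitters' question is whether DNA demethylation has a part in an effect of wogonin on the growth of these cells. Separate cultures are not stated for the libraries of a group, and the p-values here measure no more than how these 4 samples vary, which may be technical.

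Nearly all mitochondrial proteins are made in the cytosol and carried into the organelle. They pass the outer membrane through the TOM complex, whose receptors TOMM20, TOMM22 and TOMM70 bind targeting signals and whose channel is TOMM40. Proteins with a cleavable presequence then cross the inner membrane through the TIM23 complex, pulled by a motor built on the matrix chaperone HSPA9, and the presequence is cut off by the peptidase MPP. Carrier proteins are escorted by small TIM chaperones to the TIM22 complex, outer membrane barrels are inserted by the SAM complex, and small cysteine-rich proteins are trapped by the disulfide relay of CHCHD4 and GFER. OXA1L inserts proteins into the inner membrane from the matrix side.

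Each library held between 11005921 and 11839562 exon reads, of which the members took 0.207% in both DMSO libraries, 0.276% in wogonin 3 and 0.270% in wogonin 4. The libraries of the treated group differed in 2 ways that the groups do not explain. Introns took 7.96% of gene reads in wogonin 3 and between 5.26% and 5.61% in the other libraries, and mitochondrial genes took 3.03% of exon reads in wogonin 4 and between 1.45% and 1.67% in the others. Of 8 epithelial and ovarian carcinoma markers, none stood above 1 CPM in every library. CPM are counts scaled to 1000000 exon reads of tested genes in the library, with its TMM scaling factor from edgeR. The sum of these markers was 1.10 to 1.47 CPM in DMSO and 0.369 to 1.03 CPM in wogonin. EPCAM had 2 to 9 reads and MUC16 none, so the labelled cell type was not visible in these markers. Of 4 leukocyte markers PTPRC and CD3E had no read and CD14 and LYZ had 0 to 7 reads, with a sum of 0.170 to 0.326 CPM in DMSO and 0.184 to 0.933 CPM in wogonin. The endothelial markers CDH5 and VWF had no read. Of 4 fibroblast markers DCN and LUM had 12 to 23 reads, and the sum was 3.22 to 4.24 CPM in DMSO and 2.61 to 3.13 CPM in wogonin. The part of these differences in the results below was not tested, beyond the values given without a library. In bulk RNA, fewer cells with a transcript and less transcript per cell cannot be told apart.

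The promoters of the members were read for motifs of factors known to control mitochondrial genes. Whether a motif bears on the level of its gene was not tested. RefSeq promoters (GRCh38.p14, from 250 bases before to 50 after the start) were matched for 32 of 36 members, and the first window listed for a gene was used. The motif of nuclear respiratory factor 1, searched as GCGCANGCG on both strands, was held by 10 of 32 members (31.2%), against 15.6% of the 9349 tested genes that matched and 8.05% of all 27305 genes in the table. The ETS motif CCGGAAGTG and the YY1 motif AAGATGGCG were each held by 3 members (9.38%), against 5.26% and 4.18% of tested genes and 2.50% and 1.85% of the table. These matches are descriptions of letters and not sites of binding. The first 4 sequences below hold a match, and the last 2 are those of the largest rises among members, which hold none in these windows. Each gives the 120 bases before the start, 5′ to 3′ on the strand of the gene, with matches in capitals.
TOMM20, chr1:235128838-235128957, minus strand: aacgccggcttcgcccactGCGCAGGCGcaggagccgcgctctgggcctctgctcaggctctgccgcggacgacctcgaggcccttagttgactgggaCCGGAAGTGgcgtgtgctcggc
OXA1L, chr14:22766568-22766687, plus strand: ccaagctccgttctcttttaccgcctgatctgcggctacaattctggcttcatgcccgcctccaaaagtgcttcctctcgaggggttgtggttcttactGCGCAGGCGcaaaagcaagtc
CHCHD4, chr3:14124871-14124990, minus strand: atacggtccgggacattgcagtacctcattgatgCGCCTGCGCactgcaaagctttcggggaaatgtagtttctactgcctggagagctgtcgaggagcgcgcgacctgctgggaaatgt
TOMM34, chr20:44960398-44960517, minus strand: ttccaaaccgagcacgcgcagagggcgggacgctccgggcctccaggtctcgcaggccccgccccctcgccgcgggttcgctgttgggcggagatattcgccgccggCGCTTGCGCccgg
TIMM17A, chr1:201955383-201955502, plus strand: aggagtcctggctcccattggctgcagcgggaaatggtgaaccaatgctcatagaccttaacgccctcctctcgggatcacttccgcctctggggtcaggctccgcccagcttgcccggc
TIMM21, chr18:74148403-74148522, plus strand: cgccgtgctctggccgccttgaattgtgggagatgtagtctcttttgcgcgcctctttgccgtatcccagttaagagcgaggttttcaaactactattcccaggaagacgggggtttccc

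Most import genes were higher in the wogonin libraries. Of 34 members that passed the filter on low counts, 26 rose, 2 fell and 6 did not pass. The threshold was a p under 0.05 in the edgeR quasi-likelihood test, adjusted by Benjamini and Hochberg over 13449 genes. Among the 23 tested members with at least 90% unique exon reads, 18 rose and 2 fell. Of all genes tested 63.8% passed: 32.3% rose and 31.5% fell. The median log2 change (the log2 fold change of wogonin over DMSO) was 0.41 for the members and 0.00 for all genes. The middle part of the members, from the lower to the upper quartile, lay between 0.20 and 0.62, and that of all genes between -0.46 and 0.40. Among the 8197 protein-coding genes within the members' range of mean level, 36.9% rose and 31.2% fell. The median of the members was 0.40 without DMSO 1, 0.43 without DMSO 2, 0.40 without wogonin 3 and 0.41 without wogonin 4. That of all genes lay between -0.01 and 0.01 in these fits. Fewer members were called higher in each of them, and fewer of all genes passed too. The groups did not overlap in 31 of 34 members, against 81.9% of all genes. Since 22 members overlap another gene with exons and the strand setting is not given, reads of such neighbours cannot be told apart from their own. TOMM20L and a second deposited row for TIMM10B did not pass the filter. TOMM20L had no exon read in any library, which allows up to 0.253 to 0.273 CPM without TMM factors (3 counts, counting error only). The second row for TIMM10B, TIMM10B_2, had 3 reads in wogonin 3 and none elsewhere.

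**Figure D1:**
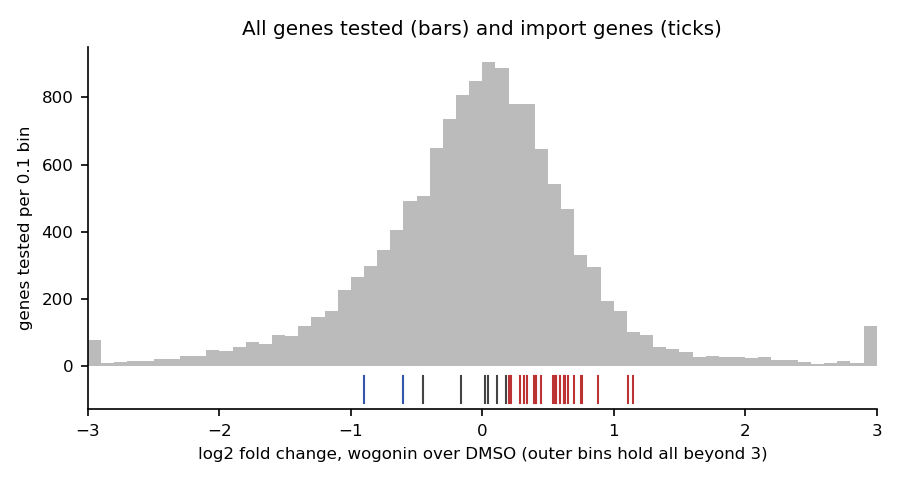
Number of tested genes (bars) by log2 change of wogonin over DMSO in bins of 0.1, with each of the 34 tested import genes as a tick below (red higher, blue lower, dark grey not passed). Most ticks stand to the right of 0, where 26 members rose, while the bars centre on 0.00.

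Levels per transcript length, from the authors' deposited TPM (reads scaled for transcript length and library), spanned a wide range among the tested members. TOMM6, a small TOM subunit, had the highest median over the 4 libraries at 563 TPM, followed by TOMM20 (276 TPM), TOMM22 (261 TPM) and OXA1L (228 TPM). PAM16 (23.7 TPM), DNAJC19 (24.2 TPM), TIMM21 (25.4 TPM) and TIMM8A (27.4 TPM) were lowest, and their order was not the same in every library. The 10 TOM members summed to 1553 and 1578 TPM in DMSO and to 2152 and 1939 TPM in wogonin. The 4 motor members summed to 192 and 197 TPM in DMSO and to 217 and 208 TPM in wogonin.

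In the outer membrane gate, 8 of 9 tested TOM members rose, none fell, and the median log2 change was 0.54. The counts by role here and below are to be read against the 32.3% of all genes tested that rose and the 31.5% that fell. TOMM20 (ENSG00000173726), the main presequence receptor, stood at 194 and 192 CPM in DMSO and at 299 CPM in each wogonin library. It rose by a log2 change of 0.63 ± 0.06 (SE, edgeR adjusted p = 6.1e-08), and the groups were apart by far more than their own spread. TOMM70A (ENSG00000154174), the receptor for carrier proteins and a docking point for cytosolic chaperones, went from 99.6 and 97.1 CPM to 159 and 175 CPM, a log2 change of 0.76 ± 0.07 (edgeR adjusted p = 7.0e-08). TOMM22 (ENSG00000100216), the central receptor, went from 76.4 and 81.5 CPM to 141 and 125 CPM, a log2 change of 0.75 ± 0.08 (edgeR adjusted p = 2.5e-07). All 3 receptors thus rose by 1.55-fold to 1.69-fold. Their groups did not overlap, which also held for 81.9% of all genes tested.

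The channel TOMM40 went from 105 and 92.9 CPM to 148 and 140 CPM, a log2 change of 0.54 ± 0.07 (edgeR adjusted p = 6.0e-06). Its paralog TOMM40L went from 29.8 and 29.0 CPM to 36.9 and 37.2 CPM, a log2 change of 0.34 ± 0.09 (edgeR adjusted p = 0.0053). TOMM40L did not pass in DESeq2 (adjusted p = 0.057) or, by edgeR, in unique gene reads (adjusted p = 0.080). The small subunits TOMM6, TOMM5 and TOMM7, which stabilise the complex, rose by log2 changes of 0.56, 0.40 and 0.39. None of the exon reads of TOMM6 was placed uniquely, and PRICKLE4 overlaps it on the same strand, so its level cannot be told apart from that of sequences that share its reads. TOMM34, a cytosolic co-chaperone for precursor proteins, stood at 96.1 and 104 CPM in DMSO and 108 and 95.7 CPM in wogonin, with groups that overlapped (log2 change 0.02, edgeR adjusted p = 0.80).

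In the SAM complex 2 of 3 members rose. The metaxin MTX1 (ENSG00000173171) went from 50.2 and 46.3 CPM to 80.5 and 76.5 CPM, a log2 change of 0.70 ± 0.08 (edgeR adjusted p = 1.1e-06), and SAMM50, the barrel that inserts other barrels, rose by a log2 change of 0.41 ± 0.07 (edgeR adjusted p = 1.1e-04). MTX2, the partner of MTX1, stood at 45.2 and 44.0 CPM in DMSO and 51.1 and 50.1 CPM in wogonin and did not pass (log2 change 0.18, edgeR adjusted p = 0.069), though it passed in total gene reads (0.24), in unique gene reads (0.25) and with the exon length trend removed (0.22). MTX1 overlaps THBS3 on the opposite strand (log2 change of THBS3 -0.88), and 47.1% of MTX1 exon reads were unique. The rise of MTX1 was smaller in unique exon reads (0.48) and in unique gene reads (0.41). Its junction reads went from 424 and 387 in DMSO to 481 and 433 in wogonin. SAMM50 overlaps PARVB (log2 change 0.91) and PNPLA3 (0.54) on the same strand, and their part in its value was not tested.

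**Figure D2:**
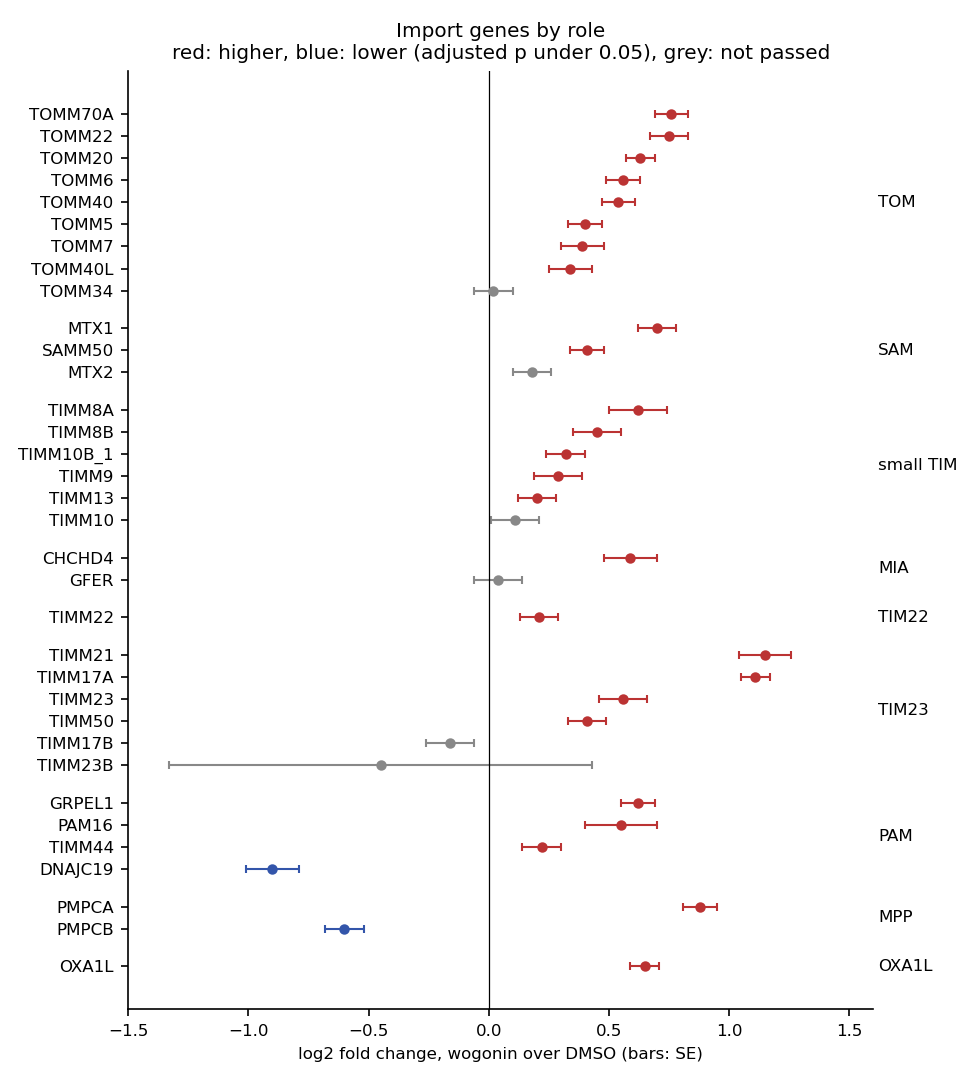
Log2 fold change of wogonin over DMSO (points) with its standard error (bars) for the 34 tested import genes, grouped by role; red points rose and blue points fell at an adjusted p under 0.05. The receptors of TOM, TIMM17A and TIMM21 of TIM23 and PMPCA lie far to the right, and DNAJC19 and PMPCB lie to the left.

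Between the membranes, 5 of 6 tested small TIM rows were called higher, with a median log2 change of 0.31, and TIMM10B_1 among these 5 turned lower in unique reads. TIMM8A (ENSG00000126953) rose from 14.7 and 13.1 CPM to 20.8 and 21.7 CPM, a log2 change of 0.62 ± 0.12 (edgeR adjusted p = 3.6e-04). Its paralog TIMM8B rose from 28.7 and 33.7 CPM to 44.7 and 40.5 CPM, a log2 change of 0.45 ± 0.10 (edgeR adjusted p = 0.0011). The other small TIM pair, TIMM9 and TIMM10, which form the chaperone of carrier precursors, moved less. TIMM9 had a log2 change of 0.29 (edgeR adjusted p = 0.014) and TIMM10 one of 0.11 that did not pass (edgeR adjusted p = 0.37). The call of TIMM9 was lost without DMSO 1 (0.25), without DMSO 2 (0.31) or without wogonin 4 (0.25), and that of TIMM13 (0.20, edgeR adjusted p = 0.048) was lost without DMSO 1 (0.23), DMSO 2 (0.15) or wogonin 3 (0.16). TIMM10B, in its first deposited row TIMM10B_1, had a log2 change of 0.32 (edgeR adjusted p = 0.0036), but 1.39% of its exon reads were unique. In unique exon reads (15 and 12 in DMSO, 3 and 6 in wogonin) the value was -1.40, and the call in all exon reads was lost without DMSO 2 (0.25), so no direction can be given for it.

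In the disulfide relay, the oxidoreductase CHCHD4 (ENSG00000163528) rose from 16.8 and 18.9 CPM to 27.7 and 26.1 CPM, a log2 change of 0.59 ± 0.11 (edgeR adjusted p = 2.6e-04). GFER, the sulfhydryl oxidase that recharges CHCHD4, stood at 34.8 and 30.0 CPM in DMSO and 32.1 and 34.6 CPM in wogonin and did not pass (log2 change 0.04, edgeR adjusted p = 0.74). Of its exon reads 36.7% were unique, and these went from 195 and 142 to 93 and 120, a log2 change of -0.51 (edgeR adjusted p = 0.013). The value for GFER thus depended on which reads were counted.

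In the inner membrane, the largest rises of all members lay in the TIM23 complex, where 4 of 6 members rose and none fell. TIMM21 (ENSG00000075336), which links TIM23 to TOM and to the respiratory chain, rose from 14.0 and 14.5 CPM to 31.1 and 32.4 CPM. That is a log2 change of 1.15 ± 0.11 (edgeR adjusted p = 1.6e-07), or 2.22-fold. TIMM17A (ENSG00000134375), a channel subunit, rose from 91.9 and 94.5 CPM to 205 and 197 CPM, a log2 change of 1.11 ± 0.06 (edgeR adjusted p = 4.6e-10), or 2.15-fold. These were the only 2 members that passed with a log2 change of at least 1 in size, a limit reached upward by 6.31% of all genes.

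TIMM17B (ENSG00000126768), the paralog that takes the place of TIMM17A in some TIM23 complexes, stood at 33.2 and 37.2 CPM in DMSO and 30.1 and 32.7 CPM in wogonin. It did not pass (log2 change -0.16 ± 0.10, edgeR adjusted p = 0.16), though it was called lower with library totals alone (-0.26, edgeR adjusted p = 0.035), a scaling that moved the median of all genes to -0.09. The ratio of TIMM17A to TIMM17B reads, which needs no scaling between libraries, was 2.77 and 2.54 in DMSO and 6.81 and 6.01 in wogonin, a difference of 1.27 on the log2 scale. The exact permutation test of 2 against 2 libraries gave p = 0.333, before any adjustment over the 3 pairs tested. That is the smallest p this design allows. The ratio of TOMM40 to TOMM40L was 3.51 and 3.21 in DMSO and 4.01 and 3.75 in wogonin (exact permutation p = 0.333), and that of TIMM8A to TIMM8B overlapped between groups (0.512 and 0.387 against 0.466 and 0.535, exact permutation p = 0.667).

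The channel core TIMM23 rose by a log2 change of 0.56 ± 0.10 (edgeR adjusted p = 1.8e-04) and the presequence receptor TIMM50 by 0.41 ± 0.08 (edgeR adjusted p = 2.0e-04). TIMM23 and its near-identical copy TIMM23B share reads. TIMM23B had no unique exon read, and its 249 and 126 reads in DMSO and 57 and 190 in wogonin gave no usable change (log2 change -0.45 ± 0.88). In unique exon reads TIMM23 went from 243 and 301 to 368 and 329. TIMM22 (ENSG00000177370), the channel for carriers, went from 47.4 and 48.7 CPM to 56.6 and 54.4 CPM, a log2 change of 0.21 ± 0.08 (edgeR adjusted p = 0.035). That call was lost without any 1 of the 4 libraries, with values of 0.17 and 0.22 without DMSO 1 and DMSO 2 and of 0.18 and 0.23 without wogonin 3 and wogonin 4.

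**Figure D3:**
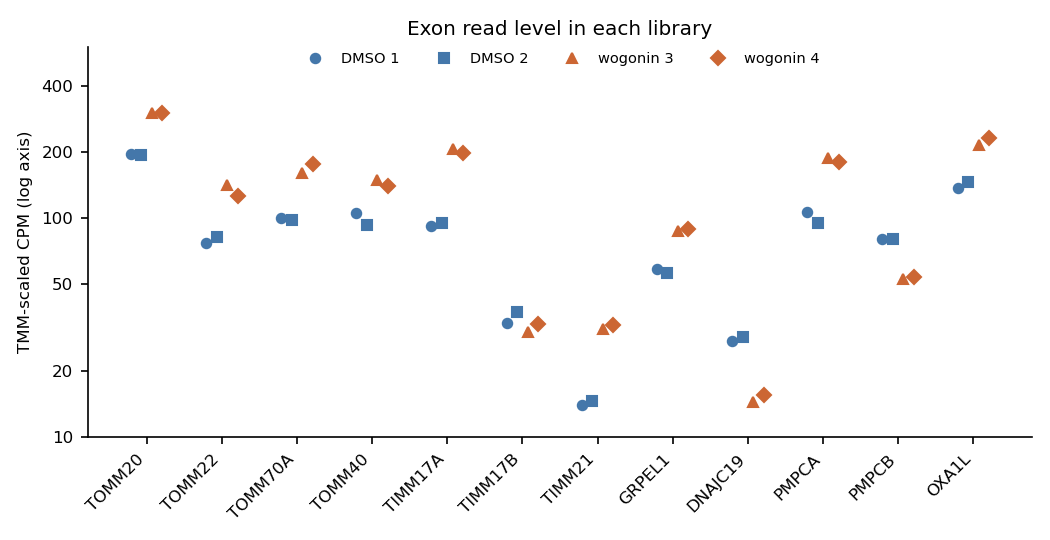
TMM-scaled CPM of 12 import genes in each library on a log axis, with DMSO libraries in blue and wogonin libraries in orange. The orange points lie above the blue ones for 9 genes, below them for DNAJC19, PMPCB and TIMM17B, and the TIMM17B groups differ by less than the test threshold.

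In the import motor 3 of 4 members rose and 1 fell, and in the peptidase behind it 1 of 2 rose and 1 fell. GRPEL1 (ENSG00000109519), the nucleotide exchange factor of HSPA9, rose from 58.4 and 56.1 CPM to 87.2 and 88.9 CPM, a log2 change of 0.62 ± 0.07 (edgeR adjusted p = 2.0e-06). DNAJC19 (ENSG00000205981), a J-domain protein known as TIM14, fell from 27.2 and 28.5 CPM to 14.4 and 15.5 CPM, a log2 change of -0.90 ± 0.11 (edgeR adjusted p = 3.7e-06). DNAJC19 was the largest fall among the members and 94.9% of its exon reads were unique. Its reads across exon junctions went from 247 and 264 in DMSO to 102 and 127 in wogonin, so the fall was present in spliced reads too. The ratio of GRPEL1 to DNAJC19 reads, a pair chosen after the values were seen and given with no test, was 2.14 and 1.97 in DMSO and 6.06 and 5.74 in wogonin.

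The other motor members rose less firmly. TIMM44, which ties HSPA9 to the channel, had a log2 change of 0.22 ± 0.08 (edgeR adjusted p = 0.022), lost without DMSO 1 (0.18), DMSO 2 (0.24) or wogonin 4 (0.13). PAM16, the J-like partner of DNAJC19, went from 12.8 and 12.3 CPM to 21.2 and 15.6 CPM (log2 change 0.55 ± 0.15, edgeR adjusted p = 0.0048), and its call was lost without DMSO 2 (0.51) or without wogonin 3 (0.32). Only 8.02% of PAM16 exon reads were unique, the readthrough gene CORO7-PAM16 overlaps it on the same strand, and in unique exon reads it did not pass (0.36, edgeR adjusted p = 0.44).

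The matrix processing peptidase is a pair of PMPCA and PMPCB, of which PMPCB is the catalytic subunit. PMPCA (ENSG00000165688, chromosome 9, 139305110 to 139318213 in the coordinates of the files) rose from 106 and 94.2 CPM to 187 and 179 CPM, a log2 change of 0.88 ± 0.07 (edgeR adjusted p = 1.7e-08). PMPCB (ENSG00000105819, chromosome 7, 102937869 to 102969958) fell from 80.2 and 79.9 CPM to 52.4 and 53.5 CPM, a log2 change of -0.60 ± 0.08 (edgeR adjusted p = 3.8e-06). The ratio of PMPCA to PMPCB reads, again chosen after the values were seen, was 1.32 and 1.18 in DMSO and 3.58 and 3.35 in wogonin. PMPCB overlaps DNAJC2 on the opposite strand, which rose by a log2 change of 0.44, and the junction reads of PMPCB went from 741 and 742 to 408 and 407. The insertase OXA1L (ENSG00000155463) rose from 137 and 146 CPM to 214 and 231 CPM, a log2 change of 0.65 ± 0.06 (edgeR adjusted p = 2.1e-07).

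**Figure D4:**
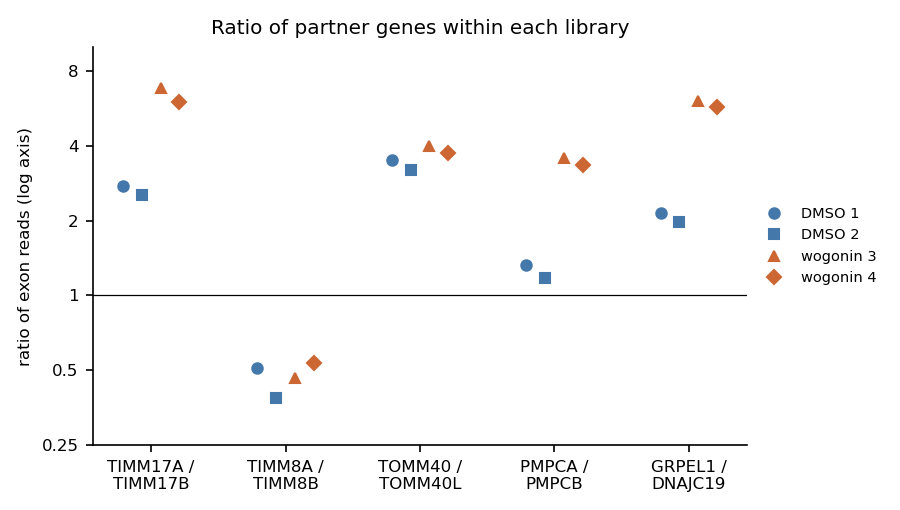
Ratio of exon reads of partner or paralog genes within each library, on a log axis, with DMSO libraries in blue and wogonin libraries in orange. The ratios of TIMM17A to TIMM17B, PMPCA to PMPCB and GRPEL1 to DNAJC19 are above 3 in both wogonin libraries and below 3 in both DMSO libraries, while TIMM8A to TIMM8B overlaps between groups.

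Intron reads gave a second, much thinner readout of the same genes. Of 23 members with enough intron reads, 6 rose, 1 fell and the rest did not pass (edgeR quasi-likelihood test over 10495 genes), against 11.3% of all genes that rose and 8.82% that fell. The median log2 change in intron reads was 0.61 for the members and 0.05 for all genes tested. TIMM17A introns had 22 and 34 reads in DMSO and 73 and 62 in wogonin (log2 change 0.97 ± 0.32, edgeR adjusted p = 0.045), and TOMM20 introns 12 and 11 against 44 and 22 (1.17 ± 0.40, edgeR adjusted p = 0.048). TIMM23 (0.93) and MTX1 (1.88) also rose in both readouts. In whole-gene counts, which include introns, MTX1 rose by 0.94 in all reads and by 0.41 in unique reads. The size of the MTX1 rise thus depended on which reads were counted. MTX2 (22 reads in each DMSO library against 109 and 51) and the second row of TIMM10B, TIMM10B_2 (log2 change 0.83), also rose in intron reads. In exon reads MTX2 did not pass and TIMM10B_2 was not tested. TOMM6, with 18 and 17 reads against 10 and 6, fell by 1.43 on the log2 scale. PMPCB introns had 61 and 49 reads in DMSO and 101 and 62 in wogonin (log2 change 0.24, edgeR adjusted p = 0.60), so its fall was seen in exon reads and not called in introns, and the difference between the readouts was not tested. Apart from that of MTX1, the intron calls were lost without DMSO 1 or without DMSO 2. How far this followed fewer calls over all genes was not tested. MTX1 and TIMM10B_2 overlap genes of changed level (THBS3 and DNHD1), whose part in their intron reads was not tested.

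**Figure D5:**
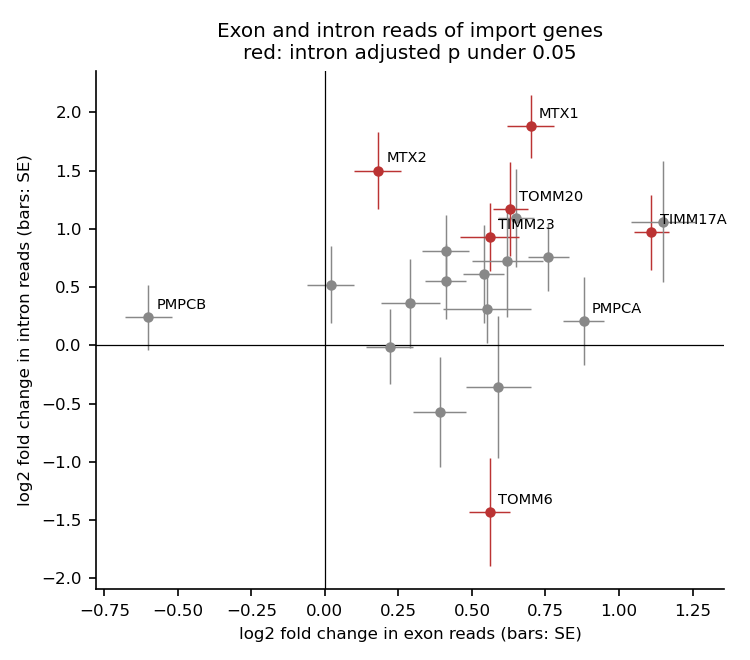
Log2 fold change in intron reads against that in exon reads for the import genes tested in both, with standard errors as bars and genes that passed in introns in red. MTX1, MTX2, TOMM20, TIMM17A and TIMM23 lie above 0 on the intron axis, TOMM6 lies at -1.43, and PMPCB lies left of 0 on the exon axis.

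Other genes of the import pathway were counted from lists outside the rule, to be read against the 32.3% of all genes tested that rose, the 31.5% that fell and their median of 0.00. Of 16 tested further import factors 7 rose, 1 fell and 8 did not pass (median log2 change 0.12). The 3 genes with the smallest adjusted p included XPNPEP3, an aminopeptidase that trims proteins after the presequence is cut, with 55.9 and 66.1 CPM in DMSO and 172 and 169 CPM in wogonin (log2 change 1.48, edgeR adjusted p = 3.1e-10), and MIPEP, a second trimming peptidase (0.90, edgeR adjusted p = 8.5e-08). MTCH1, an outer membrane insertase, rose by a log2 change of 0.91 (edgeR adjusted p = 1.6e-09). IMMP2L, a subunit of the inner membrane peptidase, rose by 1.00 from a low level, with 6.19 and 4.00 CPM in DMSO and 10.7 and 9.68 CPM in wogonin (edgeR adjusted p = 4.6e-04). DNAJC15, the paralog of DNAJC19, had no exon read in any library, and HSPA9, the motor chaperone itself, went from 861 and 925 CPM to 1033 and 1130 CPM (log2 change 0.28, edgeR adjusted p = 7.7e-04). IMMP2L, DNAJC15 and HSPA9 were named after their values were seen.

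Of 14 matrix chaperones and proteases 9 rose, 1 fell and 4 did not pass (median 0.23). The chaperones HSPE1 and TRAP1 and the protease LONP1 rose by log2 changes of 0.67, 0.59 and 0.40. Of 15 genes of inner membrane organisation and cardiolipin 8 rose, 3 fell and 4 did not pass (median 0.34), with DNAJC11, CHCHD3 and CHCHD6 at 0.83, 0.69 and 1.08. Of 16 genes of cytosolic targeting and import surveillance 11 rose, 4 fell and 1 did not pass (median 0.25). In that list the cytosolic chaperones HSPA8 and DNAJA1, which keep precursors unfolded, rose by 1.15 and 0.54, while PINK1, a kinase that builds up at TOM when import stalls, went from 57.6 and 57.3 CPM to 25.3 and 25.4 CPM (log2 change -1.18, edgeR adjusted p = 1.3e-08). Of 14 substrates of the disulfide relay 5 rose, 2 fell and 7 did not pass (median 0.23), a share of rises near that of all genes. UQCRH (0.76), COX6B1 (0.86) and COX19 (-0.69) had the smallest adjusted p among them.

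Transcription factors of mitochondrial biogenesis went mostly the other way, with 8 of 12 tested genes lower and 4 higher (median log2 change -0.33, against 0.00 for all genes). GABPB1, a subunit of the ETS factor GABP, fell from 54.5 and 56.4 CPM to 24.4 and 29.3 CPM (log2 change -1.05, edgeR adjusted p = 1.6e-07). The coactivator PPRC1 rose by 0.86 (edgeR adjusted p = 8.7e-09) and the nuclear receptor ESRRA by 0.89 (edgeR adjusted p = 4.4e-07). NRF1, named after its value was seen as the factor of the motif printed above, went from 19.7 and 19.3 CPM to 11.7 and 12.2 CPM (log2 change -0.71, edgeR adjusted p = 1.2e-04). Of the 10 members whose promoter windows hold its letters, TOMM34 did not pass. The others, TOMM20, OXA1L, CHCHD4, TOMM40, TOMM7, SAMM50, PAM16, TIMM9 and TIMM13, were called higher, as were 26 of all 34 tested members. Whether the level of NRF1 bears on these genes was not tested.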

How the data were processed

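For each library the authors deposited a table of raw counts of reads per gene (exon, intron, gene and exon junction reads, each as a total and as uniquely placed reads) and TPM and RPKM values computed from them, per the file headers. The submitters' processing notes name the builds GRCh37 and hg19, and coordinates of genes are those of the files. For the aligner, the counting program and the setting for strand, the answer is not given in the sources used here. RPKM was not used.

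Differences in total exon counts were tested in R 4.3.3 by the quasi-likelihood method of edgeR 4.0.16, with its filterByExpr filter, TMM factors and robust option and a model of treatment alone. Tests are 2-sided, and p-values were adjusted (Benjamini-Hochberg) over 13449 genes. Total intron counts of genes with exons were tested the same way. CPM values are scaled with the TMM factors. The SE is the log2 fold change over the root of the F statistic. Each library had at least 11005921 exon reads and the common coefficient of variation was 5.60%.

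The members and lists were chosen with earlier results of these data known. Named are the member of each role with the smallest adjusted p, the largest rises and falls, the paralog pairs, and from each list the called genes of smallest adjusted p, at most 3. Any other member or list gene was named after its values were seen. Promoter sequences are from RefSeq (GRCh38.p14), whose coordinates are not those of the count tables. Protein motifs were not analysed here. Alternatives were other scalings and filters, DESeq2 1.42.0, limma-voom (limma 3.58.1), unique and whole-gene counts, removal of a trend with exon length, and leaving out each library.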

Additional observations from a re-analysis of the deposited data

How the results depend on the processing

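Over 15 alternatives of the exon comparison, between 20 and 27 members were called higher. The share of all genes called in either direction ran from 43.2% (no filter) to 64.6% (unique exon reads) over these. Of the 28 called members, 21 were called with the same sign in every alternative that gave a value. The other 7 were TOMM40L, TIMM9, TIMM10B_1, TIMM13, TIMM22, TIMM44 and PAM16. Requiring a log2 fold change of at least 1 left 2 members higher and 0 lower. In unique exon reads and in unique gene reads 4 members were called lower instead of 2, with TIMM10B_1 at -1.40 and -1.47 (edgeR adjusted p = 0.020 and 0.023) and GFER at -0.51 and -0.57 (0.013 and 0.022), and the cause was not tested. GFER, not called in all exon reads, also turned to -0.05 with library totals alone, upper-quartile scaling and total gene reads, and ranged from -0.07 to 0.14 with a library left out. TOMM34, not called in any setting, turned to -0.07 with library totals alone and with upper-quartile scaling, to -0.03 in total gene reads and -0.04 in unique gene reads, and ranged from -0.06 (without wogonin 3) and -0.05 (without DMSO 1) to 0.11 with a library left out. TIMM23B, not called, turned to 0.14 without DMSO 1 and 0.17 without wogonin 3, and ranged down to -1.56 without wogonin 4. With either of these scalings the median was -0.09 for all genes and 0.32 for the members, and TIMM17B was called lower (-0.26 in both).

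In introns, library sizes taken from the exon reads called 3 members higher and 0 lower and moved the median of all genes to 0.52. Unique intron reads, with 9237 genes tested and a median of 0.04 for all genes, called 0 members lower. The number of members called higher in that setting is not given here. With a library left out, 1 to 9 members were called higher and 0 to 1 lower. For these intron settings the share of all genes called is not given, so the counts of members cannot be read against it. The difference of the TIMM8A to TIMM8B ratio ranged from -0.04 (without DMSO 2) to 0.37, that of TIMM17A to TIMM17B from 1.18 to 1.36 and that of TOMM40 to TOMM40L from 0.14 to 0.27. No paired analysis was possible because the groups share no replicate number. Depth is 1 limit of the intron results, since 10 of the 23 members tested had fewer than 50 intron reads in every library.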
